A study of Mus musculus with 39 samples.

Results

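The potassium channel genes of the mouse, here the 94 protein-coding genes of the mm10 annotation whose symbols start with Kcn, of 21938 protein-coding genes in all, were examined for binding of Notch and RBPJ in the embryonic cortex. A binding peak was given to the gene that owned the nearest protein-coding start site, and 158 of 20809 consensus peaks (0.759%) fell to a Kcn gene in this way. The rule for membership used names and positions only, but the set was chosen with earlier results of these data known. By symbol, 40 of the genes encode voltage-gated subunits, 15 inward rectifiers, 14 tandem-pore (K2P) channels and 17 auxiliary or regulatory proteins. The other 8, of the Kcnma, Kcnn, Kcnt and Kcnu families, are called calcium- or sodium-activated here, with Kcnu1 placed there by symbol only.

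Binding was mapped by Targeted DamID (TaDa), in which the bacterial methylase Dam is made at a low level as a fusion with Notch or RBPJ and marks the adenine of GATC wherever its partner meets the DNA. Plasmids were electroporated into the brains of wild-type MF1 mouse embryos at E13.5 and the cortex was dissected at E14.5. A fragment of the Hes5 promoter drove the fusions in radial glial cells (RGCs), the neural stem cells of the cortex, and the Tα1 promoter drove them in intermediate progenitor cells (IPCs), which derive from RGCs and produce neurons. The RBPJ fusion carried the human protein (3 RGC and 3 IPC samples), and the Notch fusions carried mouse NICD, the intracellular domain (4 IPC and 2 RGC samples), or mouse NdECD, which lacks the extracellular domain (2 RGC samples). Dam alone, under the same promoters, was the control (5 RGC and 4 IPC samples), so the RBPJ and Notch lists of a cell type share their controls. Both cell types are thus defined by promoter fragments on transient plasmids and were not sorted, both Notch forms are active without ligand, and peak lists hold no expression values against which the cell types could be checked.

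The values are positions. The authors deposited 4 lists of peaks, 1 for each protein in each cell type. Each list holds the peaks found in every pair of a fusion and a Dam-only sample. A Notch call thus had to recur over 4 fusion samples and an RBPJ call over 3, and a missing call does not show that binding is absent. They also deposited 1 set of consensus peaks, made by joining peaks that overlap between lists and sorting the joined regions into 8 k-means clusters by binding intensity. No height or intensity accompanies a peak and no column holds a single sample. Depth is therefore unknown, and there is no replicate spread to set a difference against. Shares below carry 95% Wilson intervals over genes or peaks, which cover counting error only and are not a test, since neighbouring genes and peaks are not independent. The set of all genes or all consensus peaks is given beside each share as background.

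Potassium channels let potassium ions leave or enter the cell along their gradient and so set the resting membrane potential and shape electrical signals. Voltage-gated subunits open on depolarisation, inward rectifiers and tandem-pore channels hold the potential near rest, and calcium- or sodium-activated channels follow the activity of the cell. In the developing cortex, progenitors have few action potentials but carry potassium conductances that set their membrane potential, and neurons acquire the full set of channels as they mature. RBPJ is the DNA-binding partner of NICD, and its best known recognition word is TTCCCA.

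Some of the regions shared by several lists and of the bound start sites, to which the account below returns, are shown first. Each is a run of 81 bases of the forward strand of mm10, taken outside annotated protein-coding exons where as many of the calling lists as possible overlap and a copy of TTCCCA is present, and the capitals mark TTCCCA or its reverse complement TGGGAA. The first 4 lie inside the peak of every list that called the region, which were all 4 lists at Kcnk16, RGC RBPJ, IPC RBPJ and IPC Notch at Kcnip1, and RBPJ in both cell types at the start sites of Kcnc2 and Kcnh8.
Kcnk16 (chr14:20225564-20225644): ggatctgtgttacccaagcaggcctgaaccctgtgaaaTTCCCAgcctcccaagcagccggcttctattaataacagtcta
Kcnip1 (chr11:33786697-33786777): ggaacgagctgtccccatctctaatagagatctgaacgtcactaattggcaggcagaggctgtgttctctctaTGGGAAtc
Kcnc2 (chr10:112270763-112270843): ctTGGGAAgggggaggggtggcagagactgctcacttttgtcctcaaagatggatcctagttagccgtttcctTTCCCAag
Kcnh8 (chr17:52601895-52601975): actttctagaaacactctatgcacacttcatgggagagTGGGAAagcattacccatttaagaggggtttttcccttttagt
The next 2 come from regions called in 3 lists but lie inside the peaks of only 2 of them, RGC RBPJ and RGC Notch at Kcna1 and RGC RBPJ and IPC Notch at Kcnj3.
Kcna1 (chr6:126644918-126644998): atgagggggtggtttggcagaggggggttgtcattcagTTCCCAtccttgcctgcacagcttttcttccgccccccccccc
Kcnj3 (chr2:55818036-55818116): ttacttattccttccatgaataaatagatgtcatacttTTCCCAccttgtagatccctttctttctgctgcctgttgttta
The last 2 come from the start-site peaks of Kcnj10, the inward rectifier typical of glia, called for RGC RBPJ, and of Kcnh2, whose IPC RBPJ peak holds no GATC site.
Kcnj10 (chr1:172341567-172341647): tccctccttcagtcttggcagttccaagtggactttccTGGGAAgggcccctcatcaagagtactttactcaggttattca
Kcnh2 (chr5:24329960-24330040): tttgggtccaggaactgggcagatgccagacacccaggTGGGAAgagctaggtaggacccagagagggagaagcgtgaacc

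In the Kcnc2 window the word occurs on both strands, whereas each of the other 7 windows holds it once. A copy of TTCCCA is common: 135 of the 158 Kcn peaks (85.4%, 79.1 to 90.1) held at least 1, against 82.9% of all consensus peaks. Within the central 500 bp of peaks that are at least that wide, it was found in 66 of 154 Kcn peaks (42.9%, 35.3 to 50.8) and in 44.3% of the 19906 such peaks of the whole set. The windows were chosen to hold the word, so its presence in them is a description.

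Of the 94 Kcn genes, 62 (66%, 55.9 to 74.7) were nearest to at least 1 consensus peak, against a background of 38.7% of all protein-coding genes. In RGCs, RBPJ peaks fell to 49 Kcn genes (52.1%, 42.1 to 61.9; background 30.9%) and Notch peaks to 18 (19.1%, 12.5 to 28.3; background 11.5%). In IPCs, RBPJ peaks fell to 36 Kcn genes (38.3%, 29.1 to 48.4; background 16.1%) and Notch peaks to 12 (12.8%, 7.46 to 21; background 6.92%). In all 4 lists the Kcn share thus lay above the share of all genes, and the interval excluded the background in each. The 4 lists are not independent of each other.

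The amount of sequence that lies nearest to a gene differs between the sets as well. This territory, the stretch between the midpoints to the neighbouring genes' start sites, had a median of 100 kb for Kcn genes and 45 kb for all protein-coding genes. The Kcn genes together own 25.1 Mb, or 0.921% of the nuclear genome, but 0.759% of the consensus peaks (0.65 to 0.887). Per Mb of territory, they held 6.29 consensus peaks, against 7.63 over all genes. By list, this density was 4.22 against 5.17 per Mb for RGC RBPJ, 0.916 against 1.36 for RGC Notch, 2.03 against 2.02 for IPC RBPJ and 0.478 against 0.791 for IPC Notch. Kcn genes thus had both a higher share with a peak and wider territories, and how far width accounts for the share was not tested. Per Mb, the Kcn genes held fewer peaks than all genes in 3 of the 4 lists and about as many for IPC RBPJ.

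Among genes with territories under 50 kb, 9 of 26 Kcn genes (34.6%, 19.4 to 53.8) had a peak, against 20.6% of all genes of that size. The shares were 52.4% against 42.2% from 50 to 100 kb (11 of 21 Kcn genes) and 68.8% against 62.6% from 100 to 200 kb (11 of 16), with the background inside the interval each time. All 17 Kcn genes with 200 to 500 kb (background 77.5%) and all 14 with 500 kb or more (background 84.5%) had a peak, and the background lay below the interval in the first of these classes (81.6 to 100%) and inside it in the second (78.5 to 100%). In every width class the Kcn share thus lay above that of all genes. In the widest class the Kcn genes nevertheless averaged 3.5 peaks each, against 5.32 over all genes.

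**Figure D1:**
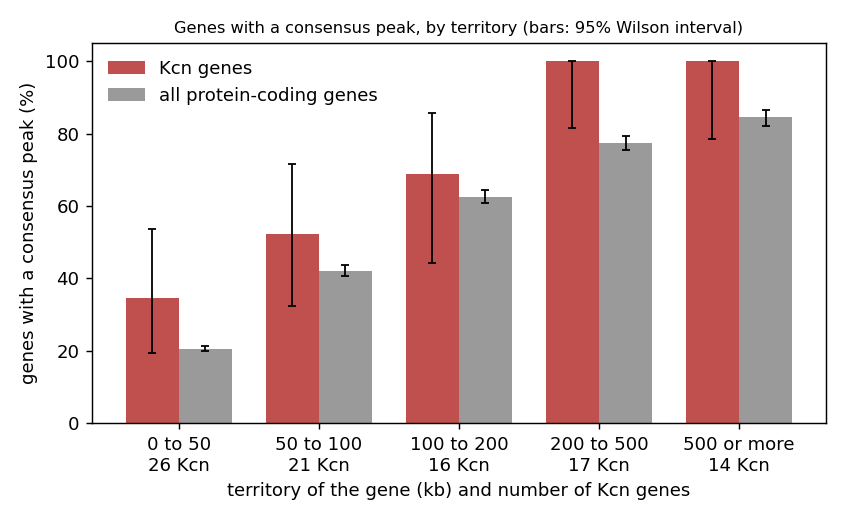
Share of genes nearest to at least 1 consensus peak (%), for Kcn genes (red) and all protein-coding genes (grey), by width of the territory in kb; lines are 95% Wilson intervals. The Kcn share rises from 34.6% under 50 kb to 100% from 200 kb on, beside 20.6% to 84.5% of all genes.

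The families differed in how many members had a peak. A peak fell to 31 of the 40 voltage-gated genes (70 peaks), 13 of the 17 auxiliary genes (33 peaks), 5 of the 8 calcium- or sodium-activated genes (20 peaks), 7 of the 14 tandem-pore genes (17 peaks) and 6 of the 15 inward rectifiers (18 peaks). The intervals of the families overlap, from 62.5 to 87.7% for the voltage-gated genes and from 19.8 to 64.3% for the inward rectifiers. Per Mb of territory the order was another, with 9.11 peaks for the tandem-pore genes, 8.34 for the auxiliary genes, 6.05 for the voltage-gated genes, 5.02 for the inward rectifiers and 4.85 for the activated channels. IPC RBPJ peaks were near 19 of the 40 voltage-gated genes (47.5%, 32.9 to 62.5) and near 3 of the 15 inward rectifiers (20%, 7.05 to 45.2). These intervals overlap, and the background was 16.1% of all protein-coding genes. Of the 12 IPC Notch peaks, 7 (58.3%) were near voltage-gated genes, which held 44.3% of all Kcn peaks. With 12 peaks this difference was not tested.

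Peaks were spread unevenly over the 62 Kcn genes that had any. A total of 26 Kcn genes had 1 peak, 10 had 2, 9 had 3 and 17 had 4 or more, and these last 17 held 85 of the 158 peaks. Kcna4, which encodes a rapidly inactivating voltage-gated subunit, had the most, 8 peaks over a territory of 1110 kb. Kcnk10 (a tandem-pore channel opened by membrane stretch), Kcnn3 (a small-conductance calcium-activated channel) and Kcnrg (a regulator thought to hinder the assembly of voltage-gated channels) had 7 each. Kcnn2, of the same type as Kcnn3, had 6, and Kcnip1, which binds the voltage-gated Kcnd subunits, and Kcnj6, an inward rectifier opened by G proteins, had 5.

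**Figure D2:**
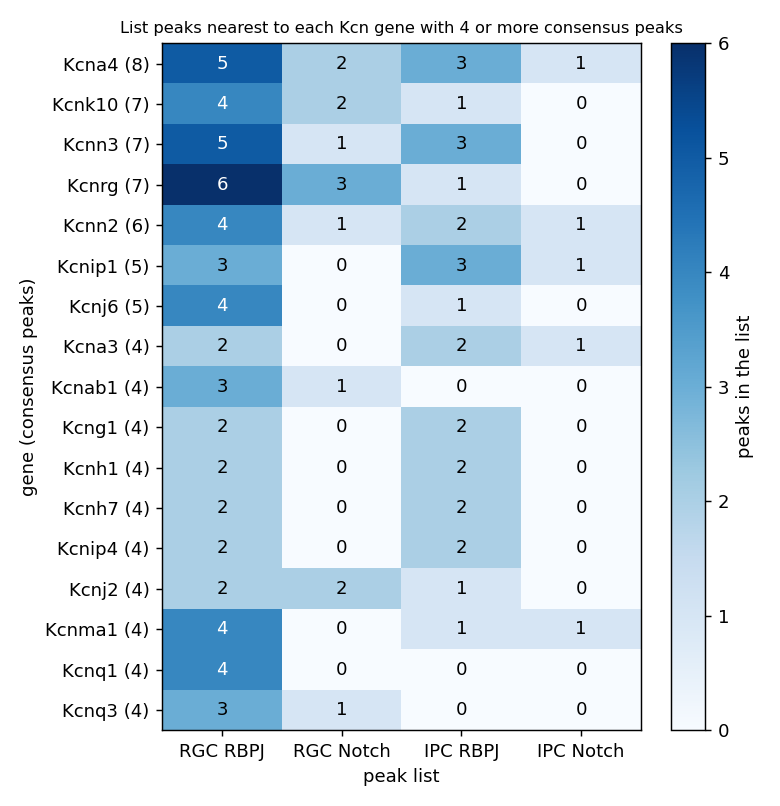
Number of peaks of each list (columns) nearest to each of the 17 Kcn genes with 4 or more consensus peaks (rows; the number of consensus peaks follows the name), with darker blue for more peaks. RGC RBPJ has the highest or joint highest count in every row, up to 6 for Kcnrg, and IPC Notch has at most 1.

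These genes were not alike in their lists. All 4 peaks of Kcnq1, the voltage-gated subunit of the heart's slow repolarising current, came from RGC RBPJ alone, and all 4 lay in its introns, 15.3 to 120 kb from a start site. The last of them lies where the noncoding Kcnq1ot1 is annotated, so its gene of origin is uncertain. Kcnq3, a subunit of the M current, had 3 RGC RBPJ peaks and 1 RGC Notch peak and none in IPCs, and its widest peak, of 5938 bp at chr15:66320369-66326306, was intergenic and called for RGC RBPJ. Kcnh1, Kcnh7, Kcng1 and Kcnip4 each had 2 RGC RBPJ and 2 IPC RBPJ peaks, no Notch peak, and no peak called in both cell types. Kcnma1, the large-conductance calcium- and voltage-activated channel, had RGC RBPJ calls at all 4 of its peaks, with 1 of them also called for IPC RBPJ and another for IPC Notch. Kcnn3 held 3 of its 7 peaks in the IPC RBPJ list and 5 in RGC RBPJ, and its widest, of 5508 bp in an intron at chr3:89557134-89562641, was called in both. The 7 peaks of Kcnk10 fell into 5 different clusters, all within its introns or on its start site.

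The nearest gene need not be the gene a region acts on, and for several of these genes the distances were long. Of the 8 Kcna4 peaks, 6 lay 248 to 886 kb from its start site in a region without protein-coding genes, where the next gene, Fshb or Mettl15, started 480 to 1100 kb away. The 4 Kcnj2 peaks lay 480 to 826 kb from its start site with Kcnj16, another inward rectifier, as the next nearest gene at 522 to 868 kb. The most distant Kcn peak was 1187 kb from Kcnv1 and 1312 kb from Csmd3. In the Kcnrg group, 4 of the 7 peaks lay within Dleu2, a noncoding gene, and the widest Kcn peak of all, 7832 bp at chr14:61676665-61684496, was among them. When start sites of noncoding and other genes were allowed to claim peaks as well, 44 Kcn genes (46.8%, 37 to 56.8) kept 76 peaks, and 30.2% of all protein-coding genes kept at least 1.

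Kcn peaks lay 32.5 kb from the nearest start site in the median (quartiles 6.76 and 88.8 kb), against 21.1 kb for all consensus peaks (quartiles 2.16 and 86.9 kb). By the midpoint of the peak, 72 (45.6%, 38 to 53.3) lay in introns and 67 (42.4%, 35 to 50.2) between genes, against 47.3% and 38.7% of all peaks. In 8 Kcn peaks (5.06%) the midpoint lay inside another protein-coding gene, such as the Trappc9 intron that holds a peak 247 kb from Kcnk9, an imprinted tandem-pore channel. Peaks beyond 300 kb made up 10.8% (6.83 to 16.6) of Kcn peaks and 7.59% of all peaks. The median width was 2084 bp for Kcn peaks and 1890 bp for all peaks.

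**Figure D3:**
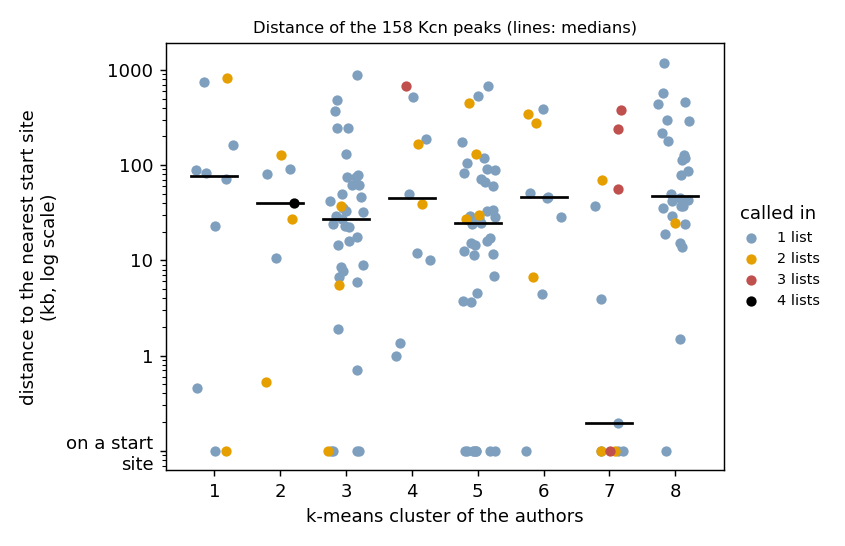
Distance of each of the 158 Kcn peaks to the nearest protein-coding start site (kb, log scale, with peaks over a start site on the lowest line), by k-means cluster; colours give the number of lists that called the peak and lines give medians. Cluster 7 has the lowest median, 0.198 kb, and the other clusters have medians of 24.6 to 76.8 kb.

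A peak covered a start site in 23 of the 158 Kcn peaks (14.6%, 9.9 to 20.9), against 16.6% of all consensus peaks. Counted by gene, these were 23 of the 94 Kcn genes, a higher share than the 3228 of the 21938 protein-coding genes (14.7%). No interval was calculated for this share of genes. The 14.6% is a share of peaks and the 14.7% a share of genes, so these 2 values are not to be compared. Of the consensus peaks called in a list, those over a Kcn start site were 16 of 106 for RGC RBPJ (15.1%; all peaks 17.8%), 3 of 23 for RGC Notch (13%; all peaks 21.7%) and 10 of 51 for IPC RBPJ (19.6%; all peaks 16.7%). None of the 12 IPC Notch peaks covered a Kcn start site (upper bound 24.2%; all peaks 14.9%), and the closest, at Kcnv1, ended 198 bp away. The interval contained the value for all peaks in each list. A start site here is that of any transcript: 17 of the 23 peaks (73.9%, 53.5 to 87.5) covered the most upstream start of the gene, against 68.6% of all start-site peaks. The other 6 covered only an internal start, 2.19 kb downstream of the first at Kcne3, 3.6 kb at Kcnk10, 22 kb at Kcnh2, 244 kb at Kcnh1, 291 kb at Kcnn2 and 364 kb at Kcnma1.

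Start-site peaks were found at 11 voltage-gated, 4 calcium- or sodium-activated, 3 tandem-pore, 3 auxiliary and 2 inward-rectifier genes. Of the 23, 11 were called for RGC RBPJ alone, 6 for IPC RBPJ alone, 3 for RBPJ in both cell types, and Kcna4 had both proteins in RGCs. Wherever they lay, 51.3% of Kcn peaks and 52.1% of all peaks were called for RGC RBPJ alone. For IPC RBPJ alone these shares were 24.1% and 18.3%. The same shares over all start-site peaks were not calculated, and no pattern particular to start sites is read from these counts. Kcng2, a modifier of other voltage-gated subunits, was the only gene whose start-site peak was called for RGC Notch alone. The start sites of Kcnh1, Kcnh2, Kcnh5, Kcnh7, Kcnk10 and Kcnt2 were covered by IPC RBPJ peaks that no other list shared.

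Kcna1, a voltage-gated subunit of axons, had the start-site peak with the most calls. Its consensus peak of 3065 bp at chr6:126643600-126646664 (cluster 7) joined an RGC RBPJ peak of 2922 bp, an RGC Notch peak of 2973 bp and an IPC RBPJ peak of 552 bp. Both RGC peaks covered its 3 annotated start sites, whereas the IPC RBPJ peak covered none of them. At Kcnc2, a fast voltage-gated subunit, the RGC RBPJ peak of 3510 bp and the IPC RBPJ peak of 1869 bp both covered 2 start sites (chr10:112269441-112272950, cluster 7). At Kcnh8 the widths were 5351 bp and 1344 bp, and both peaks covered the start site (chr17:52598995-52604345, cluster 3). At Kcnk13, a tandem-pore channel, the RGC RBPJ peak of 2107 bp covered 4 start sites and the IPC RBPJ peak of 551 bp covered none (chr12:99964310-99966416, cluster 7). At Kcna4, both RGC proteins were called over the start site, with 3526 bp for Notch and 2559 bp for RBPJ (chr2:107287859-107291384, cluster 1). In the 4 of these 5 regions that had an IPC RBPJ peak, it was narrower than the RGC RBPJ peak, and it covered a start site at Kcnc2 and Kcnh8 but not at Kcna1 and Kcnk13. Over the whole lists, too, IPC RBPJ peaks were narrower, with a median width of 1531 bp for Kcn and 1398 bp for all. The medians for RGC RBPJ were 2170 and 2059 bp.

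Kcnj10, the inward rectifier that buffers extracellular potassium in glia, had 1 peak, of 4935 bp at chr1:172340407-172345341, over its start site. It was called for RGC RBPJ alone, was in cluster 6 and held 7 copies of TTCCCA and 15 GATC sites. The neighbouring Kcnj9 had no peak over a territory of 11.8 kb.

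By list, 106 of the 158 Kcn consensus peaks (67.1%, 59.4 to 73.9) were called for RGC RBPJ, against a background of 67.6% of all consensus peaks. RGC Notch called 23 (14.6%, 9.9 to 20.9; background 17.7%), IPC RBPJ 51 (32.3%, 25.5 to 39.9; background 26.2%) and IPC Notch 12 (7.59%, 4.4 to 12.8; background 10.1%). All 4 intervals contained the background. A call in 1 list was the rule, for 131 Kcn peaks (82.9%, 76.3 to 88; background 82.9%), and 21 had 2 lists, 5 had 3 and 1 had all 4. RBPJ without Notch made up 126 Kcn peaks (79.7%, 72.8 to 85.3), against 74.6% of all peaks, and Notch without RBPJ 12 (7.59%, 4.4 to 12.8), against 13%, which lies just outside the interval. Within a cell type, 13 of the 23 RGC Notch peaks were also RGC RBPJ peaks (56.5%, 36.8 to 74.4; all peaks 43.8%), as were 5 of the 12 IPC Notch peaks with IPC RBPJ (41.7%, 19.3 to 68; all peaks 23.4%).

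By cell type, 100 Kcn peaks (63.3%) were called in RGCs only, 42 (26.6%) in IPCs only and 16 (10.1%) in both, against 66.1%, 22.4% and 11.5% of all peaks. At the level of genes, 25 of the 62 genes with a peak (40.3%, 29 to 52.7) had calls in RGCs only, against 51% of all genes with a peak, 10 (16.1%, 9 to 27.2) had calls in IPCs only, against 13.8%, and 27 (43.5%, 31.9 to 55.9) had calls in both, against 35.2%. For 12 of these 27 genes (44.4%), among them Kcnh1, Kcnj6, Kcnk9 and Kcnip4, no peak was called in both cell types and the calls were at different peaks of the gene, and the same was true of 43.9% of the 2989 such genes in all. Kcnk9 had a peak of RGC Notch 163 kb away and a peak of IPC RBPJ 247 kb away.

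The Kcn peak called in all 4 lists lay 39.9 kb from Kcnk16, a tandem-pore channel known mainly from the pancreas, between genes at chr14:20223130-20227473 (cluster 2). The peak widths were 4327 bp for RGC RBPJ, 3109 bp for RGC Notch, 2021 bp for IPC RBPJ and 1270 bp for IPC Notch. The next protein-coding gene, 41.3 kb away on the other side, was Kcnk5, another tandem-pore channel, so the region is almost equally far from both, and the count of 0 for Kcnk5 rests on a small difference in distance.

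Of the 5 Kcn peaks called in 3 lists, Kcna1 is described above, and the other 4 lay far from start sites. In an intron of Kcnip1, 55.9 kb from a start site (chr11:33785743-33787532, cluster 7), the RGC RBPJ peak was 1718 bp wide, the IPC RBPJ peak 1117 bp and the IPC Notch peak 571 bp. The same 3 lists met 379 kb from Kcnj3, a G-protein-gated inward rectifier (chr2:55815819-55818548, cluster 7), with 2633 bp, 1198 bp and 1205 bp. The other pair was called for RGC RBPJ, RGC Notch and IPC Notch. It comprised a peak 672 kb from Kcna4 (chr2:107963730-107966800, cluster 4; 1268, 3071 and 851 bp) and a peak 241 kb from Kcnn2 (chr18:45896684-45900268, cluster 7; 3530, 3552 and 1078 bp). The IPC Notch peak was narrower than the RGC RBPJ peak in each of these 4 regions. IPC Notch peaks were also narrower over the whole lists, with a median of 1158 bp for Kcn and 1284 bp for all, against 2170 and 2059 bp for RGC RBPJ.

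The k-means clusters group peaks by intensity, and the calls in each show what they hold. In cluster 1, 7 of 10 Kcn peaks were called for RGC Notch (all peaks 70.8%) and 5 of 10 for RGC RBPJ (all peaks 38.6%). All 39 cluster 3 Kcn peaks were called for IPC RBPJ, and 40 of 41 in cluster 5 and all 28 in cluster 8 for RGC RBPJ. These 3 RBPJ clusters (3, 5 and 8) together held 108 Kcn peaks (68.4%, 60.7 to 75.1), against 53.2% of all peaks. Clusters 2, 4, 6 and 7, which the authors describe as bound by both proteins, held 40 (25.3%, 19.2 to 32.6), against 36.3%. No test was made of these differences. A peak in clusters 2, 4, 6 and 7 need not be called for both proteins. RGC RBPJ called 6 of 7, 8 of 10, 7 of 10 and 10 of 13 Kcn peaks in them (all peaks 78.9%, 81%, 64.2% and 73.7%). RGC Notch called 4, 5, 2 and 2 of these (all peaks 35.1%, 41.7%, 19.7% and 7.86%).

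Cluster 5 held 41 Kcn peaks (25.9%, 19.7 to 33.3; background 22.5%), cluster 3 held 39 (24.7%, 18.6 to 32; background 16.3%) and cluster 8 held 28 (17.7%, 12.6 to 24.4; background 14.4%). Cluster 7 held 13 (8.23%, 4.87 to 13.6; background 11%), clusters 1, 4 and 6 held 10 each (6.33%, 3.47 to 11.3; backgrounds 10.5%, 9.79% and 10.8%) and cluster 2 held 7 (4.43%, 2.16 to 8.86; background 4.76%). The interval excluded the background for cluster 3 only. Its 39 peaks were spread over 27 genes, and 21 of them (53.8%) were near voltage-gated genes, beside 44.3% of all Kcn peaks. Whether these 2 shares differ was not tested.

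**Figure D4:**
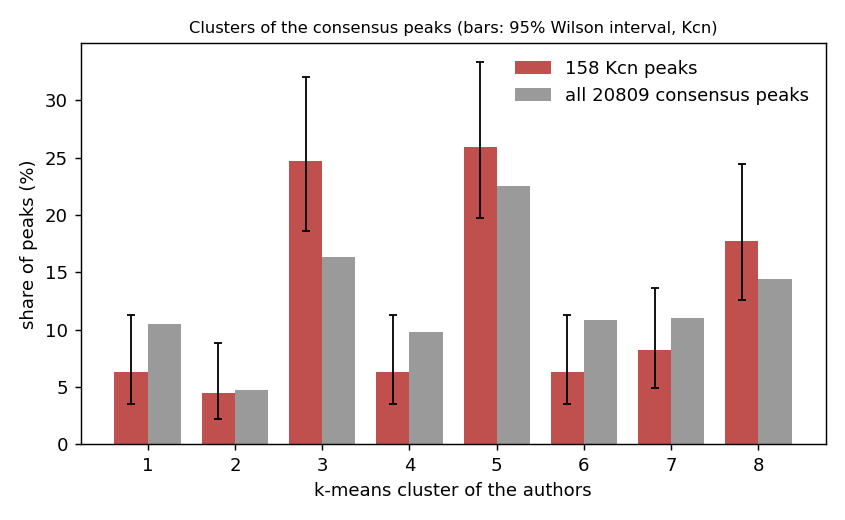
Share of the 158 Kcn peaks (red, with 95% Wilson intervals) and of all 20809 consensus peaks (grey) in each k-means cluster (%). Cluster 3 holds 24.7% of Kcn peaks and 16.3% of all peaks, the only cluster where the interval leaves out the grey bar.

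Cluster 3 stood apart in its sequence. TaDa reads out methylation at GATC, but 19 of the 39 cluster 3 Kcn peaks (48.7%, 33.9 to 63.8) held no GATC site, against 51.3% of all cluster 3 peaks. None of the 119 Kcn peaks of the other clusters lacked one (upper bound 3.13%), against 1.69% of all peaks in those clusters. All 19 were IPC RBPJ peaks, among them the start-site peaks of Kcnh2 and Kcnt2, and they made up 19 of the 38 Kcn peaks called for IPC RBPJ alone (50%; all such peaks 46.6%). With peaks lacking a GATC site left out, cluster 3 held 20 of 139 Kcn peaks (14.4%, 9.51 to 21.2), against 8.78% of the 18778 such peaks in the whole set. In this setting 26 Kcn genes (27.7%) had an IPC RBPJ peak in place of 36, and the matching share of all genes was not calculated. The part that missing GATC sites play in the IPC RBPJ calls was not tested.

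TTCCCA occurred 1.22 times per kb of Kcn peak (1.11 to 1.34, a Poisson interval; 447 copies on both strands in 366 kb), against 1.17 per kb of all consensus peaks and 0.934 per kb of the nuclear genome. Its longer form TTCCCAC, whose copies are a subset of the former, occurred 0.26 times per kb (all peaks 0.27). TAATTA, a core word of homeobox factors, occurred 0.353 times per kb (all peaks 0.358, genome 0.409), and GATC 2.99 times (all peaks 2.91). GC content was 46% in Kcn peaks, 46.2% in all peaks and 41.7% in the genome. In the central 500 bp, TTCCCA was no denser than over the whole Kcn peaks, at 1.04 per kb against 1.18 in all peaks of at least that width. By cluster, the density in Kcn peaks ran from 0.84 per kb in cluster 4 (0.498 to 1.33) to 1.41 in cluster 7 (1.04 to 1.89), with intervals that overlap. Single peaks varied more: the densest, with 4.12 copies per kb, was an RGC RBPJ peak in an intron of Kcng1, a modifier subunit of voltage-gated channels.

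**Figure D5:**
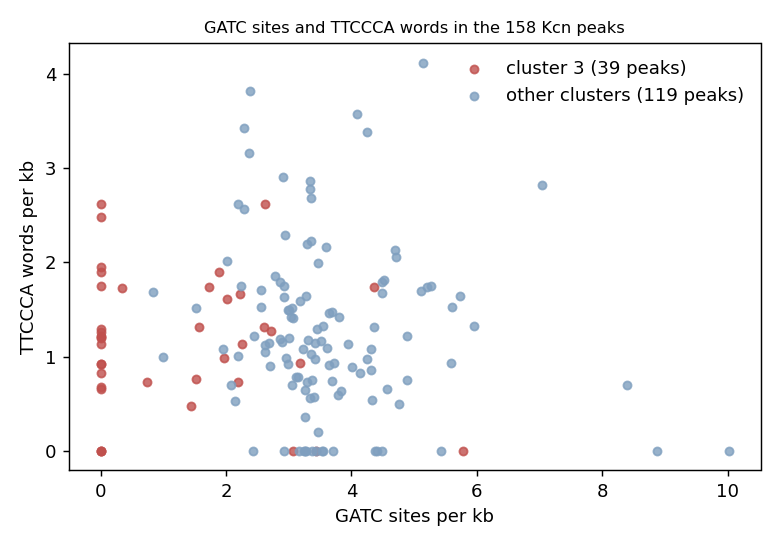
GATC sites per kb (horizontal) and TTCCCA words per kb (vertical) in each of the 158 Kcn peaks, with cluster 3 in red and the other clusters in blue. The 19 peaks without a GATC site are all red, and TTCCCA reaches 4.12 per kb.

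A total of 32 Kcn genes had no peak: 9 voltage-gated genes, 9 inward rectifiers, 7 tandem-pore genes, 4 auxiliary genes and 3 activated channels. Their territories were small, with a median of 38.5 kb (8.82 to 194), against 201 kb (11 to 1860) for the 62 genes with a peak, and their median length was 17.3 kb against 57.9 kb. The widest territories without a peak were those of Kcnk1 (194 kb), Kcnf1 (127 kb), Kcnk12 (112 kb), Kcnj12 (110 kb) and Kcnj1 (109 kb). Kcnt1, a sodium-activated channel, had none over 67.3 kb, while its relative Kcnt2 had 2 over 1860 kb. Narrow territories did not always lack a peak, since Kcnk4 had a start-site peak in a territory of 11 kb.

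Kcnd2, a subunit of the transient A-type current, had 3 RGC RBPJ peaks, of which that at 529 bp from its start site was also called for IPC RBPJ and was in cluster 2. Kcnh1, which has been tied to the cell cycle, had 4 peaks, and an internal start site was covered by an IPC RBPJ peak of 886 bp (chr1:192434048-192434933). Kcnma1 had a peak over an internal start site called for RGC RBPJ (chr14:23649861-23652524, cluster 8).

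Other channel genes, listed by symbol, gave shares on either side of that of the Kcn genes. A consensus peak fell to 21 of 26 calcium channel genes (80.8%, 9.63 peaks per Mb), 16 of 30 Trp channel genes (53.3%, 6.98 per Mb), 7 of 14 sodium channel genes (50%, 6.46 per Mb), 3 of 9 chloride channel genes of the Clcn family and 4 of 4 HCN genes. Of 19 partners of potassium channels, 12 had a peak (63.2%, 4.35 per Mb). Cntnap2, which gathers Kcna channels at the axon, had 12 peaks over 2986 kb, and the ankyrin gene Ank3 had 8 over 670 kb. Dpp10, a partner of the Kcnd channels, had none over 2112 kb, and Dpp6, of the same function, had 1. The share of Kcn genes with a peak thus lay between those of the calcium and the sodium channels, and no test sets the Kcn genes apart from these lists.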

How the data were processed

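Targeted DamID was read from 5 processed files, the 4 peak lists and the consensus peaks with their clusters. Per the study's methods, the authors mapped reads to mm10 (GRCm38.p6), ran Macs2 in its broad mode on each fusion sample against each Dam-only sample, kept peaks that passed a stringent FDR filter in all pairs of a condition, merged overlapping peaks of the lists and clustered them by averaged, length-normalized intensity. The deposited values are peak start and end positions in bp, and the score columns are constant. There are 0 columns of single samples, so no test across samples could be made.

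Positions were read with the GRCm38.p6 sequence and GENCODE vM21 and are printed counted from 1. The nearest start site of any transcript of a protein-coding gene decided the gene. Several start sites in a peak were settled by the distance to its midpoint. Features other than start sites were set by the midpoint, and a list called a consensus peak from 1 bp of overlap, which matched the list names in the cluster file for 20809 of 20809 peaks. Another 2 mitochondrial consensus peaks were left out. Words were counted on both strands. The work ran in Python 3.11.15 (pandas 2.3.3, numpy 2.4.6), with intervals from scipy 1.17.1 and figures from matplotlib 3.10.9. Assignment and word counts were tested on simulated data against direct search, and territories only for whether they summed to the chromosome lengths.

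The Kcn genes, gene lists and settings were chosen with earlier results of these data known. Named were the 12 Kcn genes with the most peaks (ties kept), genes with a peak in 3 or 4 lists, over a start site or in cluster 2 or 6, the 5 widest without a peak, and 11 genes of known biology, some of which are not reported here. Genes used as examples in describing a count were picked after their values were seen. The alternatives tried were other start sites, midpoint distance, ties, a reach of 100 kb, peaks of at least 1000 bp, peaks in at least 2 lists, peaks with GATC, autosomes, pore-forming subunits, 50% cover, and other words or windows.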

Additional observations from a re-analysis of the deposited data

How the results depend on the processing

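No paired analysis was possible because each list combines its replicates and holds no column of a single sample, and for the same reason no replicate could be left out. Over 20 values, 190 recalculations were made, of which 161 stayed within the interval (or, for counts of peaks, within 1.5 times) of the reported value and 29 did not. With start sites of any gene, Kcn peaks numbered 76, and the genes with a peak fell to 46.8% (30.2% of all genes). By list these were 31.9% with RBPJ peaks and 8.51% with Notch peaks in RGCs, and 24.5% and 2.13% in IPCs. IPC Notch called 2.63% of the 76 peaks. Limited to peaks called in at least 2 lists, 27 Kcn peaks were left, near 23.4% of Kcn genes (10.6% of all genes), with 21.3% of genes near such an RGC RBPJ peak, 11.7% near an RGC Notch peak and 13.8% near an IPC RBPJ peak. Of these 27 peaks, RGC RBPJ called 92.6% (91.1% of all such peaks), RGC Notch 48.1% (51.1%), IPC RBPJ 48.1% (46.2%) and IPC Notch 37% (38.3%), and cluster 2 held 14.8% (about 17%), cluster 5 14.8% (12.1%), cluster 3 11.1% (2.84%), cluster 7 25.9% (24%) and cluster 8 3.7% (0.506%), where the 11.1% and 3.7% are 3 peaks and 1 peak. The rise in these call shares follows from the requirement itself. With GATC-holding peaks only, RGC RBPJ called 76.3% (all such peaks 74%) and IPC RBPJ 23% (19.6%), cluster 3 held 14.4%, and 27.7% of Kcn genes had an IPC RBPJ peak, while 61.7% had a peak in any list (36.2% of all genes). A reach of 100 kb left IPC Notch peaks near 6.38% of Kcn genes, and a cover of at least 50% left 2.53% of Kcn peaks to IPC Notch. For all genes, shares per list were not calculated under any of these settings, nor was the share of all peaks at 50% cover. Whether the Kcn shares per list stay above the background there cannot be told. TTCCCAC in place of TTCCCA gave 0.26 per kb, being a longer word, and the central 500 bp gave 1.02 per kb over all Kcn peaks (1.18 over all peaks). Except where fewer peaks or a longer word account for it by construction, the cause of these shifts was not tested.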
